A study of Homo sapiens with 16 samples.

Results

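The MYC region on the long arm of chromosome 8 was read here as chr8:126500001-129200000 of GRCh38, a stretch of 2.7 Mb that holds MYC and the lncRNA genes PVT1, CASC11 and CCAT1. It comprised 13500 bins of 200 bp, of which 12031 had signal in at least 1 of the 16 tracks and 1469 had none. A bin was listed when the mean p65 signal of a group of ChIP libraries was at least 2 and at least 4 times the signal of the matched input in the same bin. In the region, 40 bins in 19 sites were listed, out of 12569 listed bins in the genome. These were chosen by their own values, so their levels are given as a description. The unit throughout is the deposited signal, tag density per bp scaled to 10 M tags.

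MYC encodes a transcription factor that pairs with MAX and drives genes of growth and division, and it is a main target of Wnt signaling in the gut. The long gene-poor stretch upstream of MYC carries enhancers that reach MYC over a distance, together with the lncRNA genes PCAT1, CASC8, CASC19, CASC21 and CCAT1. PVT1 starts downstream of MYC, hosts several microRNAs and is often gained together with MYC in tumors. p65 (RELA) is the subunit of NFκB that enters the nucleus after TNFα and binds κB sites in enhancers and promoters.

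Chromatin came from HT29 and SW480 cells, lines of human colorectal adenocarcinoma, stably transfected either with an empty vector (mock) or with ERBeta (ERβ). Each of the 4 groups had 3 p65 ChIP libraries and 1 input library, 12 and 4 in all. All cells had received TNFα (30 ng/ml, 30 min), and untreated cells were not analysed here. The transgenes were stable in each line, and an ERβ line and its mock line may also differ by descent, which cannot be told apart from ERβ. The study lists the ERβ inputs under another deposited series.

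As a check of the labels, the signal over the coding exons of ESR2, the gene of ERβ, was divided by that over the rest of the gene. The ratio was 4.07 to 6.82 in the HT29 ERβ libraries and 1.05 to 1.34 in HT29 mock, and 2.32 to 2.87 in SW480 ERβ against 1.31 to 1.51 in SW480 mock. Among the inputs it was 2.14 in HT29 ERβ and 1.27 in HT29 mock. It was 1.72 in SW480 ERβ input and 1.47 in SW480 mock input, which were thus hardly set apart. Replicate 1 of HT29 stood apart in both groups. The listed bins held 2.13% of the signal of the region in HT29 mock replicate 1 and 1.92% in HT29 ERβ replicate 1, against 1.02% to 1.16% in the other 4 HT29 libraries. SW480 mock libraries held 0.878% to 0.957%, SW480 ERβ libraries 1.47% to 2.23% and the inputs 0.313% to 0.415%. The tracks hold scaled density and no counts, so no counting error is given here.

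The level of input along the region was read first, since input signal follows the number of copies of a stretch. Over the whole region the input was 3.55 (HT29 mock), 3.50 (HT29 ERβ), 3.65 (SW480 mock) and 3.69 (SW480 ERβ) times that of the median autosomal block of the same length. The regional level therefore hardly differed between the 4 groups, and dividing by it left their order almost as deposited. Outside listed bins, the ChIP signal of the region relative to the autosomes was 3.52 ± 0.0449 (SD, n = 6) in HT29 and 3.43 ± 0.0264 (SD, n = 6) in SW480. The difference was -0.0886 (two-sided exact permutation test, p = 0.00433), and it was -0.115 without both replicates 1 of HT29. The ranges overlapped slightly, at 3.461 to 3.567 in HT29 and 3.386 to 3.464 in SW480. The test took the mock and ERβ libraries of a line as independent, although same-numbered HT29 libraries are taken as pairs below. Its p-value is therefore a description. With the median over the bins in place of the mean, SW480 stood at 1.34 and HT29 at 3.47, a difference of -2.13. Its sign turned with the reference, since relative to the rest of chromosome 8 SW480 was higher by 0.977.

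The similar regional means hid different shapes. In HT29, input over 8 stretches was 3.16 to 4.03 times the autosomal mean with mock vector and 2.78 to 4.75 times with ERβ. In SW480 it was stepped. A stretch of 169 kb at chr8:127592001-127761000, with CASC11 and MYC, had 8.33 times the autosomal mean in mock input and 7.72 times in ERβ input. The 5′ part of PVT1 followed at 1.41 and 1.82 times. From position 128003001 on, 267.6 kb from the MYC start, the level rose again to 7.71 and 7.44 times over 400 kb, and from 128403001 on to 13.3 and 12.5 times over 151 kb. The upstream edge of the MYC stretch at 127592001 and its downstream edge at 127761001 fell in the same 1-kb window in both SW480 inputs and in both groups of SW480 ChIP libraries, and so did the rises at 128003001 and 128403001.

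SW480 mock and ERβ cells did not have the same background everywhere. At chr8:126998001-127401000, the stretch with PCAT1, CASC8, CASC19 and POU5F1B, input was 1.13 times the autosomal mean in mock and 1.70 times in ERβ cells. ChIP signal outside listed bins was 0.952 ± 0.138 (SD, n = 3) and 1.86 ± 0.239 (SD, n = 3) there. Over the 5′ part of PVT1, at chr8:127761001-128003000, it was 1.24 ± 0.140 in mock and 2.31 ± 0.192 in ERβ libraries (SD, n = 3). In the MYC stretch the ERβ libraries were slightly lower, at 7.93 against 8.47. Whether copies or open chromatin set these backgrounds cannot be told apart in these tracks, and the ratio of the ERβ to the mock background within 50 kb is given below for the sites where the SW480 groups differed most.

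**Figure D1:**
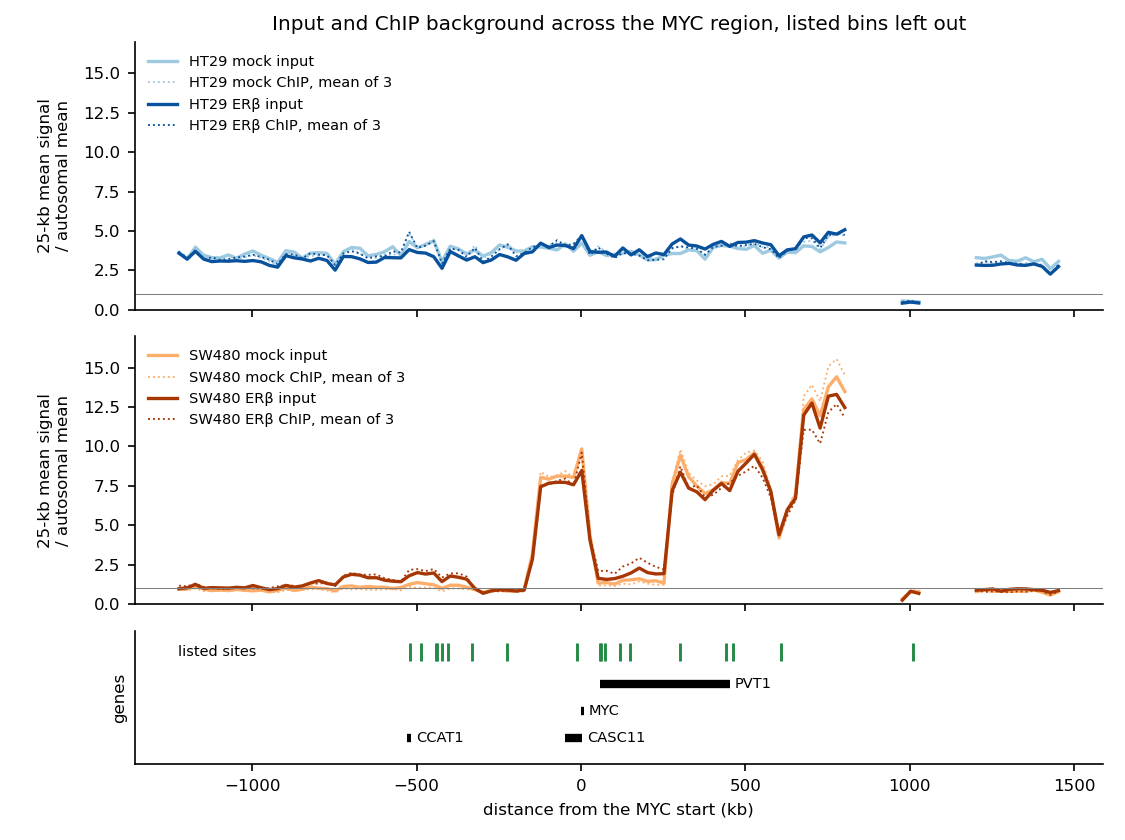
Mean signal in 25-kb windows relative to the autosomal mean of the same track (vertical axis) against distance from the MYC start in kb (horizontal axis), listed bins left out. Solid lines are inputs and dotted lines are means of 3 ChIP libraries; green ticks mark the 19 sites and black bars the genes. HT29 input lay between 2.25 and 5.07 except in 3 windows near 1000 kb, where it was 0.407 to 0.551, while SW480 mock input reached 9.85 in the window of the MYC start and 14.4 in the highest part; lines break where no track had signal.

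HT29 mock had 17 listed bins in 10 sites, HT29 ERβ 14 in 7, SW480 mock 2 in 2 and SW480 ERβ 28 in 14. The same limits passed 0.044%, 0.0292%, 0.0108% and 0.0688% of all bins of the genome, and 0.0902% in any group. The limit of 2 acts on deposited signal and is met more easily where input is raised, as in this region. With signal divided by the regional level, 14 bins were listed in any group and 10 in SW480 ERβ. That division was not made for the genome shares, so the region cannot be called rich in listed bins from these counts. Of the 40 bins, 20 were listed in SW480 ERβ alone, 6 in both HT29 groups and not in SW480, 3 in HT29 mock alone, 3 in HT29 ERβ alone, and 2 in all 4 groups. SW480 ERβ and HT29 mock shared another 6, of which 3 were also listed in HT29 ERβ. Combinations of groups were not counted over the genome, where 9577 of the 12569 listed bins were listed in SW480 ERβ. The split therefore cannot be called particular to the region. The 2 bins shared by all groups lie in introns of PVT1. Without replicate 1, HT29 mock had 8 listed bins and HT29 ERβ 9, and without replicate 3 HT29 mock had 27. The lowest listed mean was 3.62 in HT29 mock and 2.07 in SW480 ERβ, and the highest mean that passed 4 times input but not the limit of 2 was 1.54 and 1.85. The lowest listed ratio to input was 4.04 in HT29 mock and 4.01 in SW480 ERβ, and the highest ratios just outside were 3.99 and 3.94.

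By gene, 18 listed bins fell in PVT1 or its promoter, 15 in PCAT1, 9 in CASC8, 3 in CCAT1, 3 in CASC19, 3 in POU5F1B and 1 in CASC11. None fell in MYC or its promoter. The listed bins nearest to the MYC start were chr8:127723401-127723600, at -11.9 kb in an intron of CASC11, and chr8:127794201-127794400, at 58.9 kb in the promoter of PVT1. No bin was listed between these 2, a span that takes in all of MYC. The counts by gene were not set against gene length. In the region 40 of the 12031 bins with signal were listed, and MYC with its promoter comprised 43 bins. At such a share, a lack of listed bins does not set MYC apart. The span was not compared with others of its length.

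**Figure D2:**
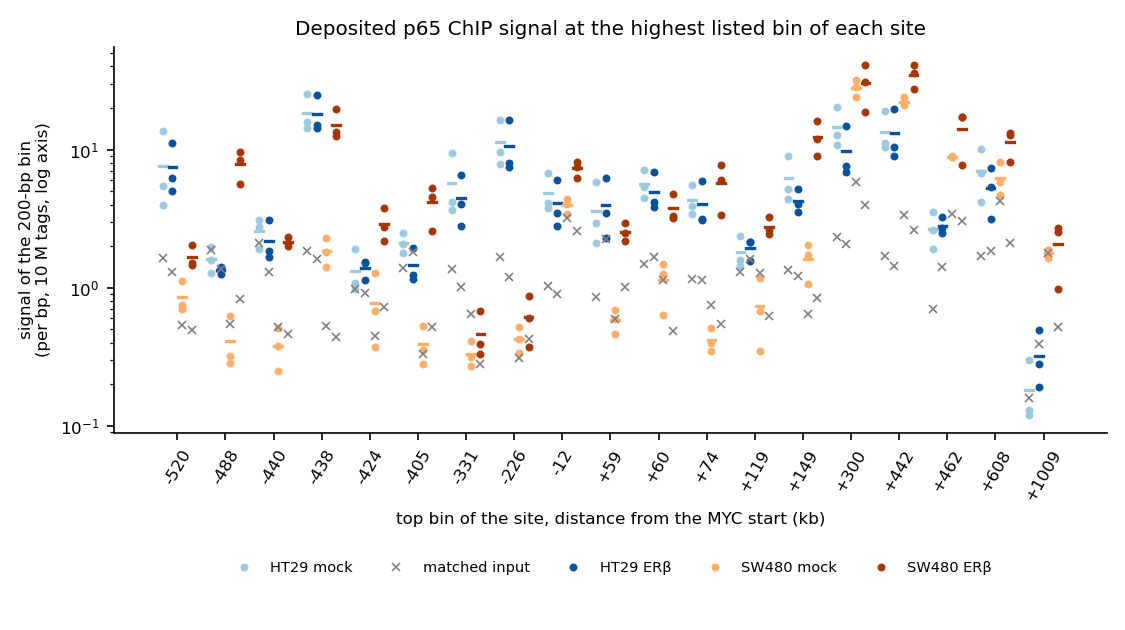
Deposited signal of the highest listed bin of each of the 19 sites (log axis), in order of distance from the MYC start in kb. Dots are libraries, bars are means of 3 libraries and crosses the matched input in that bin. At -437.7 kb 3 of the groups had means of 15.1 to 18.4 and SW480 mock 1.84, and the 2 sites at 299.9 and 441.5 kb were the highest of SW480.

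At the distal site, -487.9 kb from the MYC start, p65 signal was high in SW480 ERβ and at background in the other groups. The site spans 3 listed bins, chr8:127247201-127247800, and lies in an intron of PCAT1 in GENCODE and in CASC21 in RefSeq. Signal in its middle bin was 9.55, 8.35 and 5.64 in the 3 SW480 ERβ libraries and 0.320, 0.622 and 0.286 in the SW480 mock libraries. Every ERβ library was above every mock library, with means of 7.85 ± 2.00 and 0.409 ± 0.185 (SD, n = 3). HT29 mock libraries had 1.27, 1.96 and 1.59, and HT29 ERβ libraries 1.42, 1.39 and 1.25. These HT29 values overlapped each other and lay near their inputs, 1.89 and 1.37. Input in the bin was 0.550 in SW480 mock and 0.834 in SW480 ERβ.

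The SW480 ERβ mean was 19.2 times the mock mean as deposited. Around the site, in the surrounding 50 kb, the median ChIP signal was 2.14 times as high in ERβ as in mock libraries, and local input was 1.44 times as high. Divided by the background of its own library, the bin stood at 9.25 to 11.7 in SW480 ERβ and at 0.964 to 1.59 in SW480 mock, a ratio of means of 9.08. In HT29 it stood at 0.950 to 1.43 in mock and 0.905 to 1.04 in ERβ libraries. Over 400 bp instead of 200 bp the means were 6.02 ± 1.38 and 0.427 ± 0.166 in SW480 ERβ and mock (SD, n = 3). The bin was chosen for this pattern, so its difference is a description. After the division by the regional level its mean over all 12 libraries was under the limit of 1 used for the fits below. It entered the fits with the input of the surrounding 50 kb as divisor, through SW480 ERβ alone, since the mean of the other 9 libraries was 0.347 on that scale, and its calls there support nothing.

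**Figure D3:**
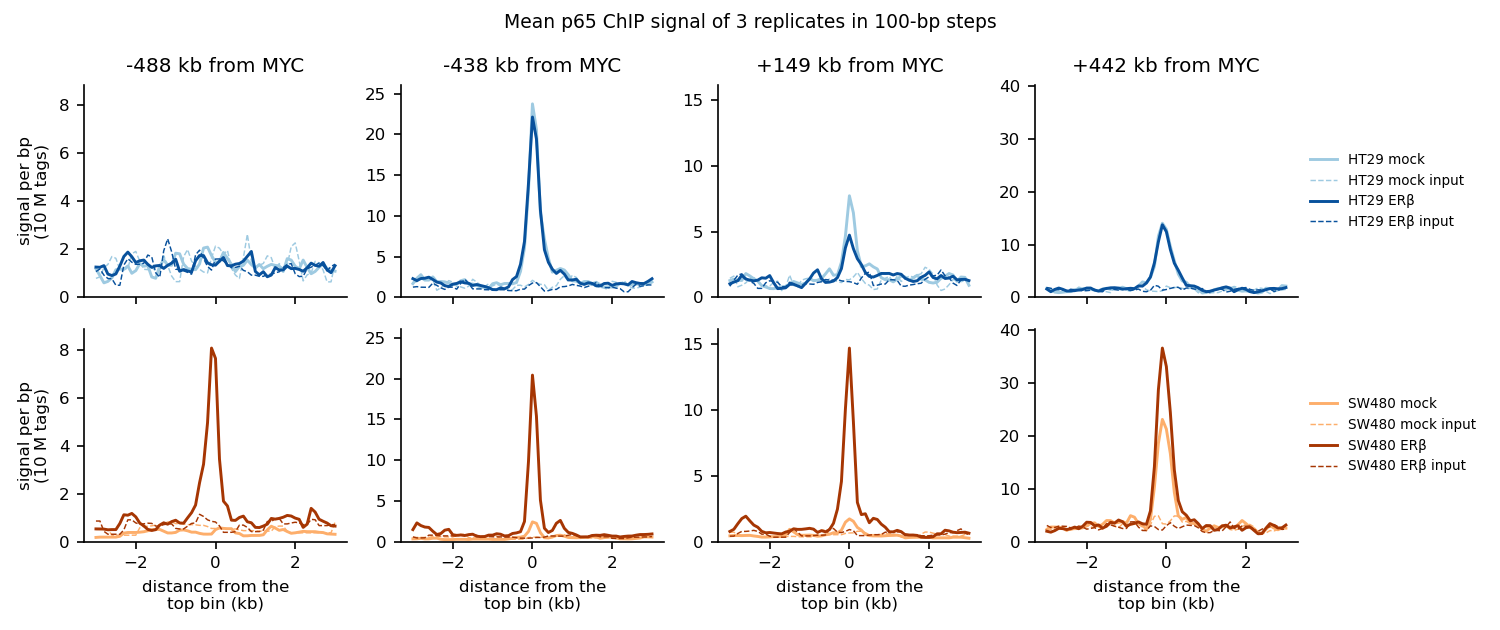
Mean ChIP signal of 3 libraries (solid) and the matched input (dashed) in steps of 100 bp within 3 kb of the top bin of 4 sites, HT29 above and SW480 below, with a common vertical axis for both lines at each site. At -487.9 kb a peak stood in SW480 ERβ (200-bp mean 7.85) and none in HT29, whereas at 441.5 kb all 4 groups had one.

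Other sites of the gene desert fell into 3 kinds. At chr8:127297601-127297800, -437.7 kb, in introns of CASC8 and PCAT1, HT29 had its highest listed bin of the region. Signal there was 25.2, 14.3 and 15.9 in HT29 mock and 24.9, 15.1 and 14.2 in HT29 ERβ, with replicate 1 the highest of both groups. SW480 mock had 1.81, 2.29 and 1.42 and SW480 ERβ 13.4, 19.6 and 12.4, without overlap. Relative to its own background the bin stood at 5.68 to 6.74 in SW480 mock and at 18.1 to 27.2 in SW480 ERβ.

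The site at -225.7 kb, between genes, was listed in both HT29 groups and in neither SW480 group. The bin chr8:127509601-127509800 had 16.5, 9.56 and 7.81 in HT29 mock and 16.3, 8.01 and 7.54 in HT29 ERβ. SW480 libraries had 0.334, 0.518 and 0.424 (mock) and 0.370, 0.606 and 0.878 (ERβ), which overlapped. The bin at -331.1 kb, in an exon of PCAT1, had means of 5.74 ± 3.19 and 4.47 ± 1.92 in HT29 mock and ERβ and 0.332 ± 0.0729 and 0.465 ± 0.185 in SW480 mock and ERβ (SD, n = 3). In both groups of HT29 its replicate 1 was the highest, and it was the single replicate of each to pass the limits.

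Within CCAT1 as annotated by RefSeq, a lncRNA of colorectal tumors, the site at -519.9 kb had means of 7.65 ± 5.14 and 7.43 ± 3.21 in HT29 mock and ERβ (SD, n = 3). SW480 mock had 1.11, 0.753 and 0.700 there and SW480 ERβ 1.51, 2.04 and 1.45. This difference of 1.95 times was close to that of the surrounding background, 1.99 times. In the neighbouring bin of the site, at -520.1 kb, the difference was 2.81 times as deposited and 1.42 times over the background, where SW480 ERβ stood at 4.01 to 5.11 and SW480 mock at 2.38 to 3.78. The sites at -440.5, -423.7 and -405.1 kb were listed in SW480 ERβ alone, with means of 2.14, 2.91 and 4.15 against 0.382, 0.775 and 0.389 in SW480 mock. HT29 mock means were 2.58, 1.32 and 2.12 there and HT29 ERβ means 2.20, 1.39 and 1.45, at 0.796 to 1.70 times their input, and at -440.5 kb both were above the SW480 ERβ mean. At -405.1 kb, in introns of CASC8, PCAT1 and POU5F1B, the ratio was 10.7 as deposited and 5.41 over the background. It was 5.60 as deposited and 2.50 over the background at -440.5 kb. At -423.7 kb it was 3.76 and 1.65, and over the background the libraries overlapped there, at 3.96 to 5.39 in SW480 ERβ and 1.34 to 4.91 in SW480 mock.

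Promoters of the 4 genes were taken as -1 kb to 100 bp around the start. The highest promoter bins of MYC, CASC11 and CCAT1 reached at most 2.04, 1.39 and 2.65 times input in any group. That of PVT1, whose promoter held listed bins, reached 4.21 times in HT29 mock and 0.973 to 2.52 times in the other groups. At MYC the signal went with the level of input. The MYC promoter had 2.35, 1.57 and 1.87 in HT29 mock, 2.46, 1.88 and 1.77 in HT29 ERβ, 3.93, 4.996 and 4.54 in SW480 mock and 4.55, 4.82 and 4.20 in SW480 ERβ. The mock and ERβ values overlapped in both lines. Divided by the input level of the surrounding 50 kb the 4 means were 0.494, 0.455, 0.460 and 0.530. Its highest bin reached 1.44, 1.15, 1.16 and 2.04 times the input of HT29 mock, HT29 ERβ, SW480 mock and SW480 ERβ. For comparison, the promoter of NFKBIA, the inhibitor that NFκB itself induces, reached 27.02, 24.2, 15.7 and 40.4 times, and that of TNFAIP3, which encodes the A20 inhibitor, 22.0, 21.9, 21.0 and 36.8 times. CCL20, a chemokine gene, reached 26.5, 24.9, 13.4 and 25.9 times at its RefSeq start, which lies 8.1 kb from the first GENCODE start used for its promoter here. These ratios depended on the start taken. At its GENCODE start CCL20 reached 1.30, 1.05, 0.580 and 2.86 times. TNFAIP3 was read above at its GENCODE start, and at its RefSeq start, 0.9 kb away, it reached 2.53, 2.89, 1.22 and 2.86 times. Several transcripts of MYC start inside the gene, beyond this promoter window, so all 43 bins from 1 kb upstream to the end of MYC were read as well. The highest ratio to input among them was 2.55 in HT29 mock, 1.72 in HT29 ERβ, 1.79 in SW480 mock and 2.04 in SW480 ERβ.

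PVT1 had 3.90, 2.36 and 1.93 in HT29 mock, 3.52, 2.06 and 2.00 in HT29 ERβ, 0.686, 0.510 and 0.480 in SW480 mock and 1.40, 1.68 and 1.80 in SW480 ERβ. The SW480 groups did not overlap and the HT29 groups did. CCAT1 had 3.08 ± 0.996 and 3.33 ± 1.09 in HT29 mock and ERβ, and 0.626 ± 0.262 and 1.20 ± 0.144 in SW480 mock and ERβ (SD, n = 3). CASC11, whose GENCODE start lies inside MYC, had 1.96 ± 0.321, 2.02 ± 0.316, 3.40 ± 0.151 and 3.19 ± 0.346 (SD, n = 3) in the same order. RefSeq places the CASC11 start 5 kb away, just upstream of MYC, where the means were 1.68, 2.02, 4.16 and 4.33. Reads of MYC and CASC11 promoters cannot be assigned to a gene where the windows lie so close.

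Promoters were compared by limma on log2(signal + 1) after the division by the regional input level, over 57392 promoters of the genome, 34 of them among the 35 of the region, with Benjamini-Hochberg adjustment. Differences on this scale understate the change of low values. For SW480 ERβ against mock 0.674% of all promoters were called, 387 in number and 22 to 1327 without 1 library, and in the region 2 of 34, both higher. These were PVT1 (log2 difference 0.32 ± 0.07 (SE), adjusted p = 0.0194) and the adjacent MIR1204, a microRNA hosted by PVT1 (0.38 ± 0.08, adjusted p = 0.0132), whose windows lie in the stretch of raised background. PVT1 remained at 0.50 with adjusted p = 0.0106 after division by the input of the surrounding 50 kb, where 0.933% of promoters were called. This divisor followed the raised background only in part. At the PVT1 promoter bin at 58.9 kb, local input was 1.15 times as high in SW480 ERβ as in mock, and the ChIP background 1.73 times. No promoter value was divided by the ChIP background. PVT1 lost the call in 5 of the 6 fits without 1 library and in a fit over all 12 libraries (adjusted p = 0.188). MYC differed by 0.00 ± 0.12 (adjusted p = 0.998), CASC11 by -0.05 (adjusted p = 0.915) and CCAT1 by 0.18 (adjusted p = 0.234).

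For HT29 ERβ against mock, 0.00174% of promoters were called and none of the 34. MYC differed by 0.04 ± 0.11, PVT1 by -0.03 ± 0.14, CCAT1 by 0.06 ± 0.16 and CASC11 by 0.03 ± 0.11 on the log2 scale, with adjusted p from 0.971 up. The ERβ difference of SW480 minus that of HT29 was called for 0.106% of promoters and for none of the 34. For PVT1 it was 0.36 ± 0.14 (adjusted p = 0.331). With the replicate block 1 of the 34 was called, and in the genome 1150 promoters in place of 61.

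Between the mock lines, 24 of the 34 promoters were called, 5 higher and 19 lower in SW480, against 2.39% of all promoters (1.17% higher and 1.22% lower). MYC was higher in SW480 by 0.53 ± 0.13 (adjusted p = 0.0105), while PVT1 and CCAT1 were lower by values of -0.60 ± 0.09 and -0.66 ± 0.09 (adjusted p = 1.71e-05 and 8.14e-06). After division by the input of the surrounding 50 kb none of the 34 was called (1.1% of all promoters), and MYC stood at -0.03 (adjusted p = 0.922). Between the ERβ lines 16 of 34 were called, against 4.67%, and 1 with the input of the surrounding 50 kb, against 4.19%. The number of called promoters thus depended on the divisor. Over all alternatives the highest value between the mock lines was -0.338 for PVT1 and -0.227 for CCAT1, so both stayed lower in SW480. The cause was not tested.

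**Figure D4:**
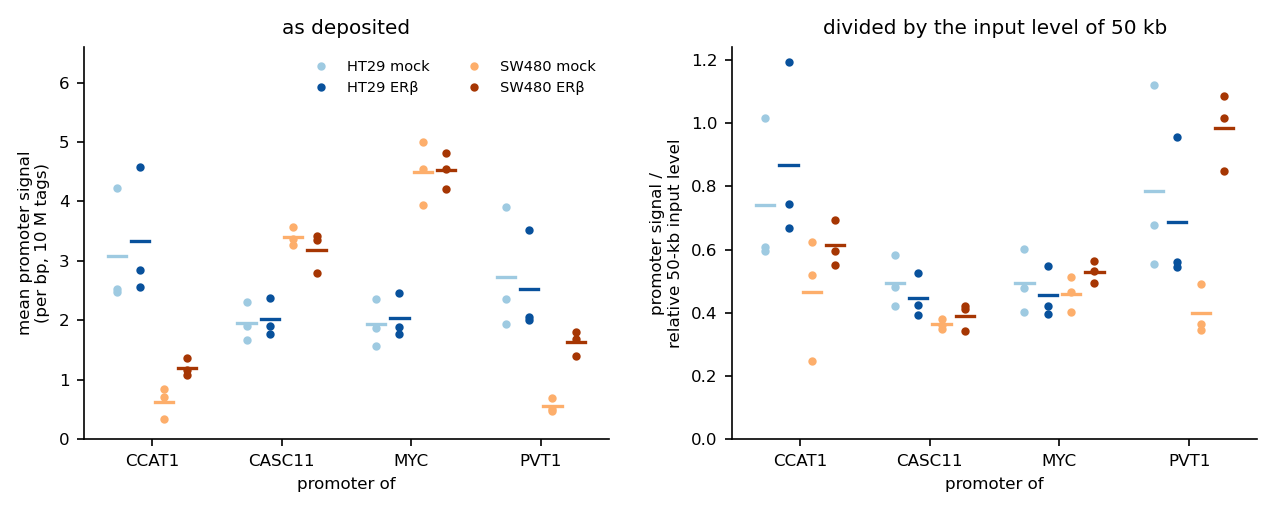
Mean promoter signal of CCAT1, CASC11, MYC and PVT1 by library (dots) with group means of 3 libraries (bars), as deposited on the left and divided by the relative input level of the surrounding 50 kb on the right. MYC means of 1.93 to 4.52 on the left became 0.455 to 0.530 on the right, and PVT1 stayed higher in SW480 ERβ than in SW480 mock.

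PVT1 held the sites with the most signal of SW480. The bin chr8:128035201-128035400, at 299.9 kb, had 24.2, 28.5 and 31.7 in SW480 mock and 18.8, 41.3 and 30.8 in SW480 ERβ, which overlapped. HT29 mock had 20.5, 12.7 and 10.8 and HT29 ERβ 14.7, 7.64 and 6.90. The ranges of the HT29 groups overlapped, while ERβ was lower than mock in each of the 3 same-numbered pairs, by -0.45 on the log2 scale (limma with the replicate block, adjusted p = 0.268). SW480 input in this bin was itself high, 5.84 in mock and 3.95 in ERβ. The bin chr8:128176801-128177000, at 441.5 kb, had 24.0, 21.8 and 20.9 in SW480 mock and 27.5, 41.2 and 36.1 in SW480 ERβ. It entered the limma fit below and was not called there for SW480 ERβ against mock. Its HT29 values were 18.9, 10.5 and 11.1 with mock vector and 19.8, 9.02 and 10.5 with ERβ. Both bins lie in the high-input part of SW480. Divided by their own background, the SW480 mock values at 441.5 kb, 7.52 to 8.44, lay within the range of the HT29 mock values, 7.32 to 14.4, and SW480 ERβ stood at 11.1 to 16.6.

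In the 5′ part of PVT1, where SW480 input was low, ERβ and mock libraries of SW480 lay further apart. The bin chr8:127884601-127884800, at 149.3 kb in an intron, had 9.02, 16.2 and 11.9 in SW480 ERβ and 1.06, 1.73 and 2.03 in SW480 mock. HT29 mock had 8.96, 4.38 and 5.22 and HT29 ERβ 5.22, 4.01 and 3.51, and these groups overlapped with ERβ lower in each of the 3 same-numbered pairs (log2 difference -0.29, adjusted p = 0.496 by limma with the replicate block). The SW480 ratio was 7.72 as deposited and 3.76 over the background, which was itself 2.02 times as high with ERβ. At chr8:127809601-127809800, 74.3 kb, the values were 3.36, 7.76 and 6.02 in SW480 ERβ and 0.399, 0.350 and 0.510 in SW480 mock. HT29 mock had 5.51, 3.89 and 3.44 there, and HT29 ERβ 5.89, 3.13 and 3.09. Over the background of its own library this bin stood at 4.49 to 11.2 in SW480 ERβ and 0.833 to 1.51 in SW480 mock. The bin at 118.9 kb was listed in SW480 ERβ alone, with 3.23, 2.46 and 2.62 against 0.681, 1.18 and 0.350 in SW480 mock, and HT29 libraries had 1.45 to 2.38 there. Its SW480 ratio of 3.76 fell to 2.11 over the background.

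Around the PVT1 start, the bin at 58.9 kb was listed in HT29 mock and had 5.80, 2.95 and 2.10 there, while HT29 ERβ had 6.20, 3.49 and 2.29. The ERβ mean was not lower. It missed the list because the ERβ input of the bin was 2.24 and the mock input 0.860. The bin at 59.9 kb, in the promoters of MIR1204 and PVT1, had 3.21, 4.74 and 3.31 in SW480 ERβ and 0.640, 1.26 and 1.5 in SW480 mock. The ratio was 3.31 as deposited and 1.87 over the background, where the libraries overlapped. Its HT29 means were 5.68 and 4.97 with mock vector and ERβ. Beside MYC, the CASC11 bin at -11.9 kb had 4.37, 4.05 and 3.40 in SW480 mock and 6.18, 8.19 and 7.55 in SW480 ERβ, without overlap and with a background ratio of 0.940. The bin entered the limma fit below and was not called there for SW480 ERβ against mock. It was not listed in SW480, where its inputs were 3.21 and 2.58, and it was listed in HT29 at means of 4.88 ± 1.63 and 4.09 ± 1.69 (SD, n = 3).

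Downstream of PVT1, the bin at 461.7 kb had means of 8.89 ± 0.0428 in SW480 mock and 14.0 ± 5.48 in SW480 ERβ, and that at 608.5 kb 6.27 ± 1.77 and 11.3 ± 2.82 (SD, n = 3). As deposited the SW480 groups overlapped in both. Over the background of their own library they overlapped at 461.7 kb, with a ratio of means of 1.71, and not at 608.5 kb, where SW480 ERβ stood at 4.70 to 7.76 and SW480 mock at 2.65 to 4.50. The last site, at 1009.3 kb in an intron of CCDC26, lies between stretches of 48.2 and 141.6 kb without signal in any track. Its SW480 ERβ libraries had 0.982, 2.69 and 2.55, SW480 mock had 1.65, 1.87 and 1.88, and HT29 libraries were at or below 0.496.

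**Figure D5:**
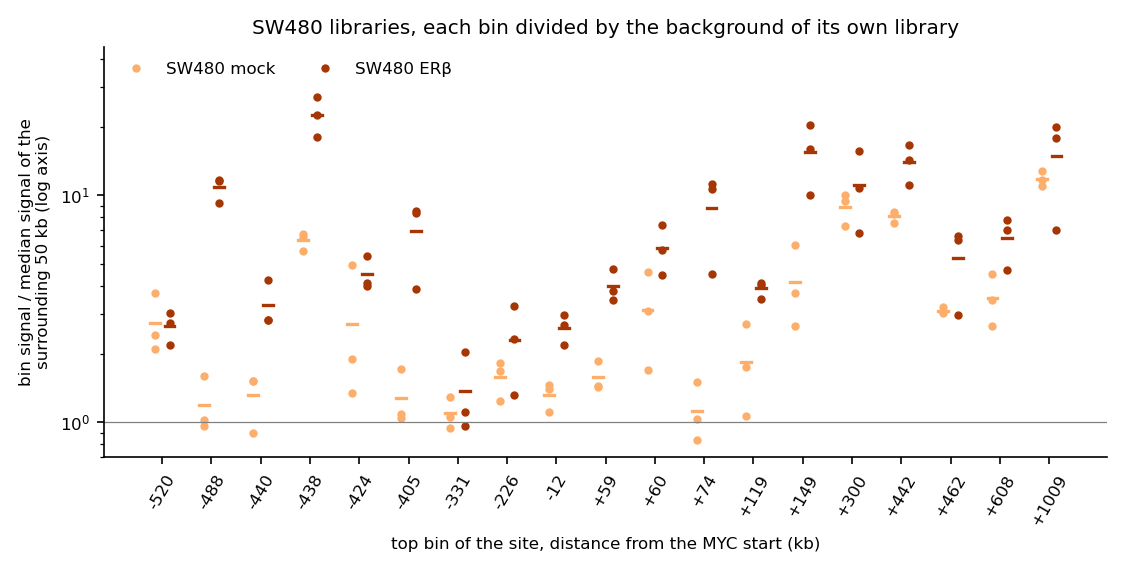
Signal of the highest listed bin of each site in the SW480 libraries, divided by the median ChIP signal of the surrounding 50 kb in the same library (log axis); dots are libraries and bars means of 3. At -487.9, -437.7 and 74.3 kb every ERβ library stood above every mock library, while at -519.9 kb the 2 groups overlapped.

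Bins were compared by the same limma fit over 32278 bins of the genome whose mean over the 12 ChIP libraries, divided by the regional level, was at least 1. In the region 146 bins entered, among them 19 of the 40 listed bins. For SW480 ERβ against mock, 12.8% of all bins were called, 12.5% higher and 0.375% lower. In the region 7 of 146 (4.79%) were called, all higher, which is below the background. This order depended on single libraries. Without SW480 mock replicate 1 it turned, with 4 of 146 against 476 of 32278. It also turned without SW480 mock replicate 2 (4 against 453), ERβ replicate 2 (5 against 872) and ERβ replicate 3 (5 against 802). Without SW480 ERβ replicate 1 it held, with 17 of 146 against 10819 of 32278, and so it did without mock replicate 3 (5 against 1627). With the replicate block 8 of 146 and 6567 of 32278 were called. All 7 were listed bins, chosen in part by the same values, so these calls are not separate support for the list. The bins at 74.3 and 149.5 kb passed the filter of 1 through SW480 ERβ, since the other 9 libraries had means of 0.825 and 0.904. The differences were 1.74 ± 0.22 (SE) on the log2 scale at -437.7 kb, with 1.36 in the bin beside it, 1.58 and 0.96 in neighbouring bins at 149.3 kb, 1.16 at 74.3 kb, 0.62 at 59.9 kb and 0.48 in the CCAT1 site. The calls of both bins at -437.7 kb, of the bin at 74.3 kb and of the stronger bin at 149.3 kb held in every alternative in which these bins entered. The weaker bin beside it lost its call without SW480 mock replicate 1 or 2 (14 of 16 alternatives kept it). The bin at 59.9 kb kept its call in 9 of 16 alternatives, with adjusted p up to 0.202 in limma, and the CCAT1 bin in 7 of 16, with adjusted p up to 0.470.

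Most tested bins of the region lay in the stretch of highest input. The median over the 146 bins was -0.16, against 0.30 over all tested bins. After each library was centred on its median, 5 bins were higher and 5 lower in the region, and 1494 and 990 in the genome. With the input of the surrounding 50 kb as divisor, 45 bins entered and 9 (20%) were called, all higher, against 16.6% of all bins. All 9 were listed bins, the distal bin among them, and 4 passed the filter through SW480 ERβ. This divisor followed the raised ChIP background of SW480 ERβ only in part. At -437.7 kb the local input was 1.46 times as high in SW480 ERβ as in mock, and the ChIP background 2.32 times.

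In HT29, 0.0124% of bins were called for ERβ against mock by limma, and none of the 146. In the genome 4 bins were called and 1068 had an unadjusted p under 0.05, and with the replicate block 4 were called and 4572 had one. Of the 40 listed bins, ERβ was lower than mock in all 3 same-numbered pairs in 15, in 2 pairs in 12, in 1 pair in 9 and in none in 4, against 24.9%, 40.8%, 26.9% and 7.44% of all tested bins. The sets are unlike, since 19 of the 40 listed bins were tested and listed bins were chosen in part by HT29 values. The ERβ difference of SW480 exceeded that of HT29 in 4 of the 146 bins, against 4.37% of all bins. They were 2 bins at 149.3 kb, with differences of 1.86 ± 0.34 and 1.23 ± 0.31 (SE), the bin at -437.7 kb with 1.75 ± 0.40 and that at 74.3 kb with 1.21 ± 0.33. These 4 were listed by the same SW480 ERβ values, and those at 74.3 kb and at 149.5 kb entered through them, so the calls support nothing further. The first kept its call in all 22 alternatives in which it entered, its neighbour in 11 of 22, the bin at -437.7 kb in 14 of 23 and that at 74.3 kb in 8 of 21. With the input of the surrounding 50 kb all 4 were called, at 2.07, 1.39, 1.69 and 1.81, among 5 of 45 in the region, the distal bin included, and 7.91% of all bins. Leaving out a single library of either line left 1 to 6 bins called. The replicate block gave 8 in the region, and in the genome 8241 in place of 1412.

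Between the mock lines 127 of the 146 bins were called, 117 higher and 10 lower in SW480, against 24% of all bins (4.54% higher and 19.5% lower). Of the 117, 106 lay in the part with the highest SW480 input, and none of these was listed. The 10 lower bins were all listed bins of the gene desert and the 5′ part of PVT1, with log2 differences down to -2.01. They were listed in part by their HT29 values, and 7 of them passed the filter through HT29, with SW480 means under 1. Likewise 116 of the 117 higher bins had HT29 means under 1, so neither count is separate support. With the input of the surrounding 50 kb as divisor, 12 of 45 bins were called, 6 higher and 6 lower, against 22.9%. Between the ERβ lines 100 of 146 were called, 96 higher and 4 lower, against 19.5%, and 29 without SW480 ERβ replicate 3. Of these, 91 of the 96 and all 4 had a mean under 1 in the lower line. With the local input the count was 8 of 45, against 20.1%. The pair of bins at -225.7 kb was lower in SW480 in both line comparisons, and the first bin of the pair stood at -1.74 ± 0.25 between the ERβ lines and at -1.25 there with the local input. Both bins were listed by, and entered through, their HT29 values, so these are descriptions.

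Motifs were searched on both strands of the GRCh38 sequence of each bin, which is not the sequence of the lines themselves. A κB consensus was found in 10 of the 40 listed bins (25%) and in 343 of the 11991 other bins with signal (2.86%), and 9 of the 19 sites held it. The sites at -437.7, -225.7, 74.3, 149.3, 299.9 and 441.5 kb were among these 9. The AP-1 letters TGACTCA or TGAGTCA, which are each other's complement, were found in 6 listed bins (15%) against 3.39%. The TCF/LEF letters CTTTGAT, bound by the effectors of Wnt signaling, were in 3 listed bins (7.5%) against 3.44%. The estrogen response element, GGTCA and TGACC spaced by 3 bases, was in no listed bin and in 4 others (0.0334%). No 2 of these motifs contain each other. The distal site at -487.9 kb held none of the 4. No test was made, since the bins were chosen by signal.

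Partners of MYC were read at their promoters in the same fits. Of 12 genes of the MAX network, among them MAX, the MXD repressors and MNT, none was called in any of the 5 comparisons, which called 0.00174% to 4.67% of all promoters, so that a count of 0 does not set these genes apart. Their median log2 difference for SW480 ERβ against mock was 0.07. Of 7 reference targets of p65, none was called either, the window of CCL20 being at its distant first start, with a median of 0.29 for SW480 ERβ against mock and -0.15 for HT29 ERβ against mock. At its highest promoter bin MNT, a repressor that competes with MYC for MAX, had 4.39 ± 2.16 in SW480 ERβ and 2.85 ± 1.07 in SW480 mock (SD, n = 3), which overlapped, while its HT29 means were 1.29 with ERβ and 1.75 with mock vector.

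The promoters with a pattern most like that of the distal bin were searched among 3533 protein-coding promoters outside the region, by Pearson's r over the 12 ChIP libraries on log2(signal + 1). They were SAA1 (0.911), CYBA (0.905), BIRC2 (0.901), ZCCHC10 (0.895) and RARS2 (0.880). These are descriptions over 12 libraries in 4 groups. SAA1, an acute-phase protein, had 3.94 ± 0.233 in SW480 ERβ, 0.610 ± 0.259 in SW480 mock, 1.12 ± 0.170 in HT29 mock and 0.755 ± 0.372 in HT29 ERβ (SD, n = 3). The distal bin had the higher level in SW480 ERβ.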

How the data were processed

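The p65 ChIP-Seq tracks of 12 ChIP and 4 input libraries were used, grouped by the sample labels. The labels of the input libraries also list the p65 antibody, and they were read as inputs from their titles; every listed bin and divisor rests on this reading. Per the methods and the submitters' processing notes, the authors mapped unique reads to GRCh38 (hg38) with STAR and used HOMER. The deposited values are coverage signal, tag density per bp scaled to 10 M tags and fragments of 100 bp, without entries below 0.05. Versions of these tools are not given in the sources used here. The tracks hold scaled density and not counts, so counting intervals are not given; the read totals the study lists were not used here.

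Signal was averaged in bins of 200 bp and in promoters (1 kb upstream to 100 bp downstream of the start) of GENCODE 44, at the first start of each gene; CCAT1 was taken from RefSeq. The region, its 4 genes and all lists were chosen with earlier results of these data known. Stretches of input and bins to name in depth were read from the tracks. The genes named were the 4 genes, genes of the region with a listed bin, a MAX network list and a list of p65 targets. Bins named were the distal bin, the 5 highest listed bins of each line, those nearest to MYC and the called bins of lowest p; the other sites are named for completeness.

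For tests, each library was divided by the level of its matched input over the 2.7-Mb block relative to the median autosomal block, and log2(signal + 1) was fitted with limma 3.58.1 (trend) in R 4.3.3 over all features with a mean of at least 1 (bins) or 0.1 (promoters), called at a Benjamini-Hochberg adjusted p under 0.05. Each line was fitted alone and the ERβ difference between lines by an interaction over 12 libraries. The study describes its replicates as biological and as separate experiments; the labels do not say more. Scripts were tested on simulated data. Alternatives were other limits, filters, pseudocounts, divisors, centring, a joint fit, a replicate block and fits without 1 library; division by the input of the surrounding 50 kb was added after the data were seen. Same-numbered HT29 mock and ERβ libraries deviated together (r = 0.477, 0.194 and 0.161 over bins), so the numbers were taken to pair HT29 libraries. Replicates 2 and 3 were not set apart (r = 0.215 for mock 2 with ERβ 3 and 0.152 for mock 3 with ERβ 2). In SW480 r was 0.180, 0.0626 and 0.112 for same numbers and -0.137 to 0.0487 for unlike numbers. The main fits of both lines left the pairing out, and the replicate block took it in as an alternative. Sequences of chromosome 8 are not printed.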

Additional observations from a re-analysis of the deposited data

Results flagged for a closer look

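The ERβ difference of SW480 minus that of HT29 was past the limit of adjusted p in 4 bins of the region, by limma on the interaction. All 4 were listed bins, chosen in part by the same SW480 ERβ values, and 2 of them, at 74.3 and 149.5 kb, passed the filter on low values through SW480 ERβ, so these calls are a description. It was 1.86 (log2) at chr8:127884601-127884800 and 1.23 at chr8:127884801-127885000 in an intron of PVT1, 1.75 at chr8:127297601-127297800 in CASC8 and PCAT1, and 1.21 at chr8:127809601-127809800 in PVT1. Beside these bins the background of SW480 ERβ libraries was 1.75 to 2.32 times that of SW480 mock libraries. With the input of the surrounding 50 kb as divisor all 4 were called, but this input followed the background only in part. At chr8:127297601-127297800 it was 1.46 times as high in SW480 ERβ as in mock, against 2.32 times for the ChIP background. Over all alternatives in which they entered, the bins kept the call in 22 of 22, 11 of 22, 14 of 23 and 8 of 21, in the order above.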

How the results depend on the processing

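Limits. A listed bin rests on 1 input library per group, and the input level of 2.7 Mb does not follow the steps of SW480. The cause of the changes below was not tested.

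The count of listed bins, 40, was 66 at 3 times and 20 at 6 times input and 14 with signal divided by the regional level; for HT29 mock 36, 7 and 9, with 9 where 2 of 3 replicates had to pass; for HT29 ERβ 22, 7 and 8, with 9; for SW480 mock 1 at 6 times input; for SW480 ERβ 15 at 6 times input and 10 after the division. Without 1 replicate the counts were 36 to 44 in any group, 8 to 27 (HT29 mock), 9 to 16 (HT29 ERβ), 2 (SW480 mock) and 24 to 30 (SW480 ERβ).

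With a stricter filter, a looser filter and signal as deposited, 8, 710 and 4420 bins of the region entered in place of 146, and the called bins numbered 2, 11 and 256 (25%, 1.55% and 5.79% of those, against 4.79%) for SW480 ERβ against mock, 3, 623 and 3555 between mock lines and 4, 411 and 2324 between ERβ lines. Over the genome these fits called 1592 of 7181, 4970 of 72415 and 6445 of 47375 bins for SW480 ERβ against mock. The genome counts were 2456, 11789 and 21795 between mock lines and 1579, 12044 and 20724 between ERβ lines. Blocks of 500 kb gave 21 and 11 between mock and ERβ lines, the surrounding 50 kb 12 and 8, and centring 33 between ERβ lines. The interaction gave 1 with the stricter filter, 31 as deposited, 2 with both inputs averaged and 1 when centred. Without 1 replicate the counts were 4 to 17 for SW480 ERβ against mock (17 without ERβ replicate 1, 4 without mock replicate 1 or 2), 0 for HT29, 109 to 134 between mock lines, 29 to 91 between ERβ lines (29 without SW480 ERβ replicate 3) and 1 to 6 for the interaction. In the genome, 4147 called bins for SW480 ERβ against mock became 453 to 10819 without 1 replicate and 1592 to 6567 otherwise, and 1412 for the interaction 220 to 5617 and 209 to 8241.

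Called promoters for SW480 ERβ against mock were 0 without a filter, 9 as deposited and 0 in the joint fit; between mock lines 12 (stricter filter, 14 tested, 9 higher and 3 lower against 5 and 19 of 34), 7 (500 kb) and 0 (50 kb); between ERβ lines 8 (of 14), 3 and 1. Without 1 replicate they were 0 to 3, 0 in HT29, 19 to 24, 12 to 15 and 0 to 1 for the interaction. With the replicate block, called bins were 39 between ERβ lines and 8 for the interaction (8241 in the genome), the interaction gave 1 promoter in the region and 1150 in the genome, against 61, and HT29 11 promoters in the genome, against 1, and SW480 ERβ against mock 961, against 387, which without 1 replicate was 22 to 1327; the pairing changed no other count of the region by over 1.5 times.

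The regional level of SW480 minus HT29 was 0.977 relative to the rest of chromosome 8. The distal bin's log2 difference of SW480 ERβ against mock, 1.48 after the regional division, was 2.63 as deposited, 1.86 with the surrounding 50 kb and 1.37 to 1.62 without 1 replicate. Some promoter values turned sign. The MYC difference between mock lines, called at 0.53 after the regional division, was -0.0311 with the surrounding 50 kb and no longer called, and the other values below were not called in the first place. With the surrounding 50 kb, CASC11 stood at 0.0281 (SW480 ERβ against mock), -0.0458 (HT29 ERβ against mock), -0.131 (mock lines), -0.0573 (ERβ lines) and 0.0739 (interaction), MYC at 0.0680 (SW480), -0.0372 (HT29) and 0.105 (interaction), and PVT1 at 0.241 between ERβ lines. MYC in SW480 stood at 0.0115 as deposited, 0.0149 with 500-kb blocks and 0.00708 with both inputs averaged. Without 1 replicate the ranges were -0.0205 to 0.0698 for CASC11, -0.0626 to 0.185 for CCAT1, -0.0169 to 0.0917 for MYC and -0.149 to 0.0951 for PVT1 in HT29, -0.0521 to 0.0426 for MYC in SW480, and -0.00519 to 0.242 for CCAT1 and -0.0937 to 0.0148 for MYC in the interaction.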
